A study of Mus musculus with 16 samples.

Results

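The 30 genes described here take up, move and burn fatty acids, or are known targets of the PPAR receptors. They were listed by name from textbook roles, with earlier results of these data known. They cover the carnitine shuttle, mitochondrial and peroxisomal beta-oxidation, acyl-CoA thioesterases, omega-hydroxylases, and fatty acid uptake and storage. Further members are 2 of the PPAR receptors, genes of fuel choice and uncoupling, and the hormone FGF21. All 30 were among the 24011 gene symbols of the deposited table, and their values were followed across aorta and liver and across estradiol and vehicle.

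RNA was sequenced from 16 libraries of mouse aorta and liver in 4 groups of 4: aorta with E2, aorta with vehicle, liver with E2 and liver with vehicle. All groups came from wild-type female C57BL/6 mice ovariectomized at 6 to 7 weeks of age, so no animal had ovaries during the week before its tissue was collected. Whole aortas, or pieces cut from the end of the largest lobe of the liver, were then kept in DMEM culture medium at 37 degrees for 4 h with 10 nM of the estrogen 17beta-estradiol (E2), or with ethanol as vehicle. Of the 16 libraries, 8 came from an Ovation kit that amplifies total RNA and ran on 2 kinds of sequencer, and 8 came from poly-A selection with a TruSeq kit, each from 1 aorta or 1 liver fragment. The design text speaks of 2 replicates for a condition, with 4 mice pooled in each, and so leaves the TruSeq libraries undescribed. Where separate mice stand behind separate libraries is not fully given, so the p-values measure the spread between these libraries, part of which may be technical.

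Long-chain fatty acids enter mitochondria as carnitine esters, made by a CPT1 enzyme on the outer membrane and turned back to acyl-CoA by CPT2 inside, and are then shortened by cycles of beta-oxidation. Peroxisomes run a parallel pathway, and omega-hydroxylases of the CYP4A family offer a further exit. PPARalpha, the lipid-activated receptor that drives many of these genes in fasting liver, acts as a heterodimer with RXR on pairs of half-sites spaced by a single base (DR1 elements). PPARdelta serves many of the same genes in muscle and other tissues. Adipose tissue and heart muscle, which may lie close to an aorta, also burn fatty acids and use the muscle-type enzyme CPT1B.

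Upstream sequence is shown for 3 members that hold DR1-like letters close to the start site and differ between the tissues: Fabp1, lower in aorta, and Cd36 and Ucp3, higher in aorta. Windows of 300 bases around the first listed start site were taken from RefSeq on GRCm38.p6, and 24 of the 30 members had one. The DR1 word AGGTCANAGGTCA, searched on both strands, had no exact match in the members' windows and stood in 0.0444% of all 27025 windows. With up to 2 mismatches it was found in 5 of 24 members' windows (20.8%), against 3.81% of all windows. The 120 bases before the start site are printed 5′ to 3′ on the gene's strand, with the DR1-like letters in capitals. Fabp1 lies at chr6:71199759-71199878 on the plus strand, Cd36 at chr5:17835897-17836016 on the minus strand and Ucp3 at chr7:100472871-100472990 on the plus strand.
Fabp1: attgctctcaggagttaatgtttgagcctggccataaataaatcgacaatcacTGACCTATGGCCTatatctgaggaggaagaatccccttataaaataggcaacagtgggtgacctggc
Cd36: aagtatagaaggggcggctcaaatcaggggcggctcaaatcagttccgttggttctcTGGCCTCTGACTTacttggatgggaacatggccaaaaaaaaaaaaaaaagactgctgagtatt
Ucp3: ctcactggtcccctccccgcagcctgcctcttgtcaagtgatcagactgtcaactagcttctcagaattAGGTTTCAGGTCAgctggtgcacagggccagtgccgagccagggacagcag

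The Fabp1 letters begin at -67 on the opposite strand with 1 mismatch, the closest match among the members. Those of Cd36 begin at -63 on the opposite strand and those of Ucp3 at -51 on the gene's own strand, each with 2 mismatches. The other 2 matches, with 2 mismatches each, are shown alone in their own 5′ to 3′ direction because these genes did not pass the thresholds between tissues.
Plin2: AGGTCAGGGGTCC
Slc25a20: AGGTGAAAGGTCG

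The half-site AGGTCA, which any DR1 match also tends to hold, stood in 7 of 24 members' windows (29.2%) and in 16% of all windows. The estrogen response element GGTCANNNTGACC was in none of the 24, exactly or with 1 mismatch, and in 0.0666% and 0.844% of all windows. These matches describe letters only. A missing match says nothing about the receptors, since the windows are short and each gene has other regulatory sequence.

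Counts assigned to genes ran from 3896733 to 19823982 per library, and the members took 0.173% to 1.33% of them. Levels are given as CPM, counts scaled per 1e6 on TMM library sizes, in the library order o1, o2, n1, n2, the suffixes of the deposited columns, which no label explains. The tissue labels matched their markers: 10 hepatocyte markers summed to 63.8 to 593 CPM in aorta and 72112 to 196879 CPM in liver, and 8 smooth muscle markers to 9924 to 31235 CPM in aorta and 171 to 475 CPM in liver. Aorta libraries also held adipocyte markers, at 1639 to 4046 CPM against 105 to 269 CPM in liver, and brown adipocyte markers, at 239 to 1200 CPM against 4.09 to 18.6 CPM. All 6 brown adipocyte markers were detected in aorta, and Dio2 was at 0 in liver with E2. The 15 striated muscle markers summed to 72.3 to 407 CPM in aorta and 9.00 to 33.9 CPM in liver. Of these, Myh1, Myh2 and Myh4 were at 0 in all 8 liver libraries and had at most 5 counts in any aorta library. In aorta vehicle o1 the heart muscle genes Myh6 and Tnnt2 stood at 97.8 and 93.1 CPM, against at most 4.77 and 36.6 CPM in the other aorta libraries with vehicle.

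The n and o libraries stood apart for many members. In aorta the n libraries lay above the o libraries without overlap for 13 of 28 tested members, where 34.3% of all tested genes did so, and below for 5, where 31.8% did. In liver they lay above for 14 of 27, against 35.5% of all genes, and below for 7, against 35.9%. Of the 30 members, 10 were above and 5 below in both tissues. The 5 include Cyp4a14, which was untested in aorta and had at most 5 counts per library there. No such count was made over all genes, so these numbers cannot be set against a share. Acaa1a, a peroxisomal thiolase, averaged 21.7 CPM in n and 0.991 CPM in o libraries of aorta, and 117 CPM in n and 3.82 CPM in o libraries of liver. Cpt1a went the other way, at 15.5 CPM in n and 40.4 CPM in o libraries of aorta, and 19.4 CPM in n and 185 CPM in o libraries of liver. The ribosomal RNA precursor Rn45s took 25.7% to 34.5% of gene counts in the liver o libraries and at most 6.20% elsewhere. Where 1 letter alone changed a member's call between tissues, this is given with that member.

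**Figure D1:**
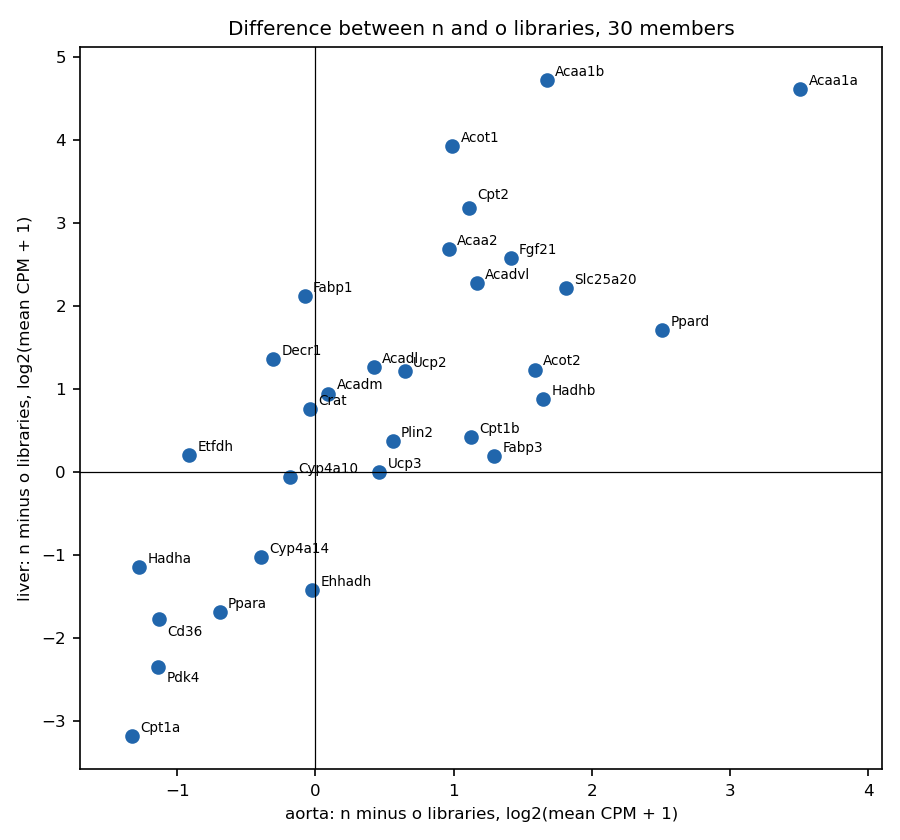
Each point is 1 of the 30 members, placed by the difference of log2(mean CPM + 1) between n and o libraries in aorta (horizontal axis) and in liver (vertical axis). Acaa1a lies at the upper right, higher in n libraries of both tissues, and Cpt1a at the lower left, lower in n libraries of both.

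Per kilobase of exon, the members' order also depended on the letter. Plin2, which coats lipid droplets, ranked highest among the members in aorta by both letters, at 181 CPM per kb in n and 123 CPM per kb in o libraries. Fabp1, the liver fatty acid binding protein, ranked highest in liver, at 14004 CPM per kb in n and 3222 CPM per kb in o libraries. Hadha and Hadhb encode both subunits of the mitochondrial trifunctional protein and start head to head, their promoter windows sharing 228 bases at chr5:30155003-30155230 on GRCm38.p6. Hadhb nevertheless counted far lower per kb than Hadha, at 5.55 and 48.4 CPM per kb in aorta n libraries and at 1.68 and 65.3 CPM per kb in liver n libraries. In o libraries the values were 1.45 for Hadhb and 118 for Hadha in aorta, and 0.70 and 144 in liver. The counting annotation is not given in the sources used here, and reads of overlapping genes cannot be told apart, so the part of counting in this gap was not tested. The same holds for the related pairs Acot1 and Acot2, Acaa1a and Acaa1b, and Cyp4a10 and Cyp4a14. Where their sequences are alike, the counting could have split or dropped their reads.

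**Figure D2:**
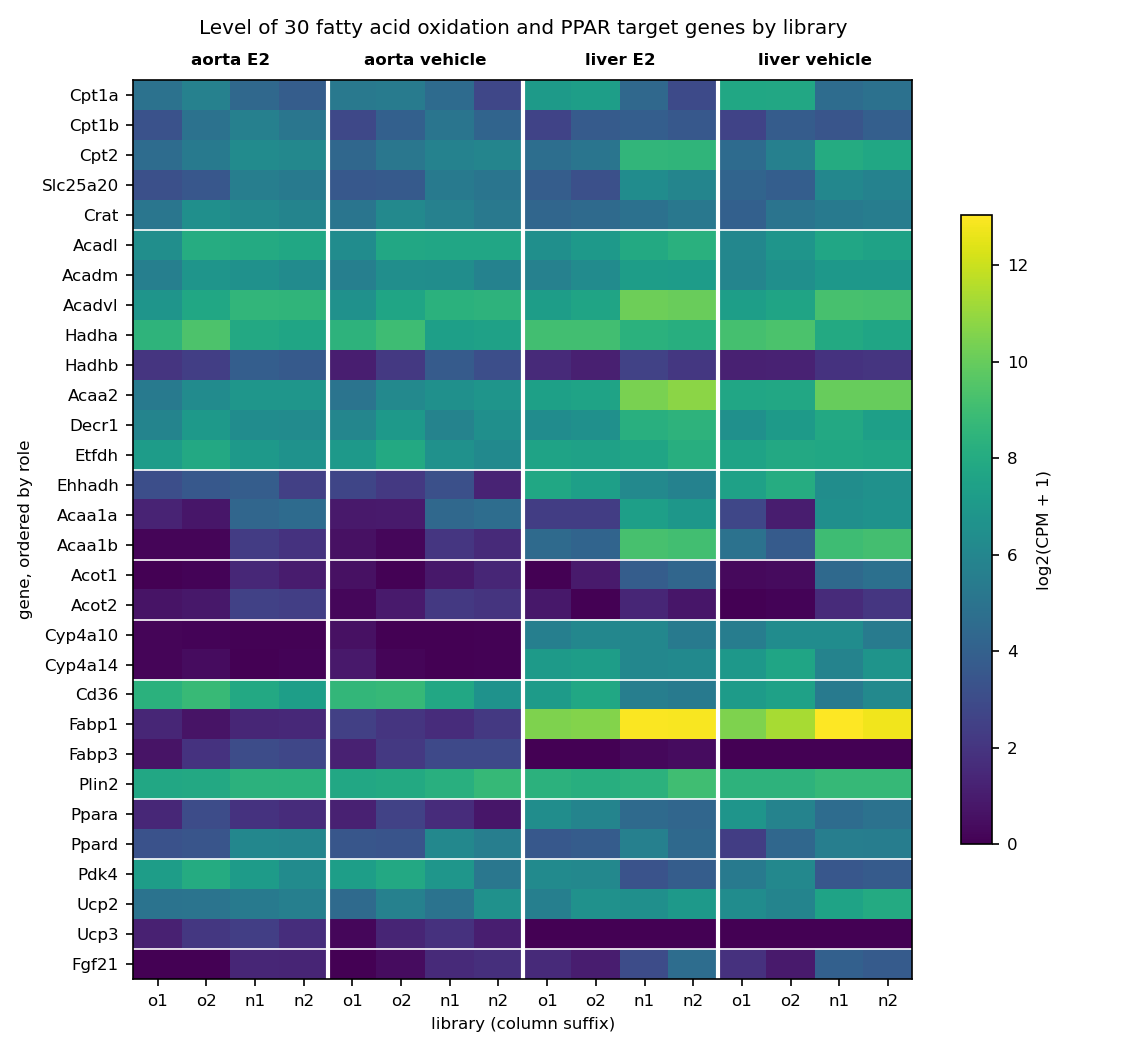
Level of the 30 members, as log2(CPM + 1) by colour, in the 16 libraries, with aorta E2, aorta vehicle, liver E2 and liver vehicle from left to right and genes ordered by role. Fabp1, Cyp4a10 and Cyp4a14 are bright in liver alone, and Ucp3 is at 0 in all 8 liver libraries.

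Aorta was first set against liver, separately in vehicle and in E2 libraries, to show where the module is expressed. With vehicle, 27 members were tested and 14 passed both thresholds, an adjusted p under 0.05 in edgeR's quasi-likelihood test and an absolute log2 fold change over 1. Of these, 2 were higher in aorta (Pdk4 and Cd36), where 24.1% of all tested genes were called higher, and 12 were lower, where 23.4% of all genes were called lower. The members' median log2 fold change was -0.86 with vehicle. With E2, 28 were tested and 17 passed, 6 higher against 26.3% of all genes and 11 lower against 22% of all genes. Both comparisons called 12 members, in the same direction each time: 12 of the 14 with vehicle and 12 of the 17 with E2. How many of all genes were called in both was not counted, so this overlap cannot be set against a share. In whole tissue, fewer cells of a type and less RNA per cell cannot be told apart.

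**Figure D3:**
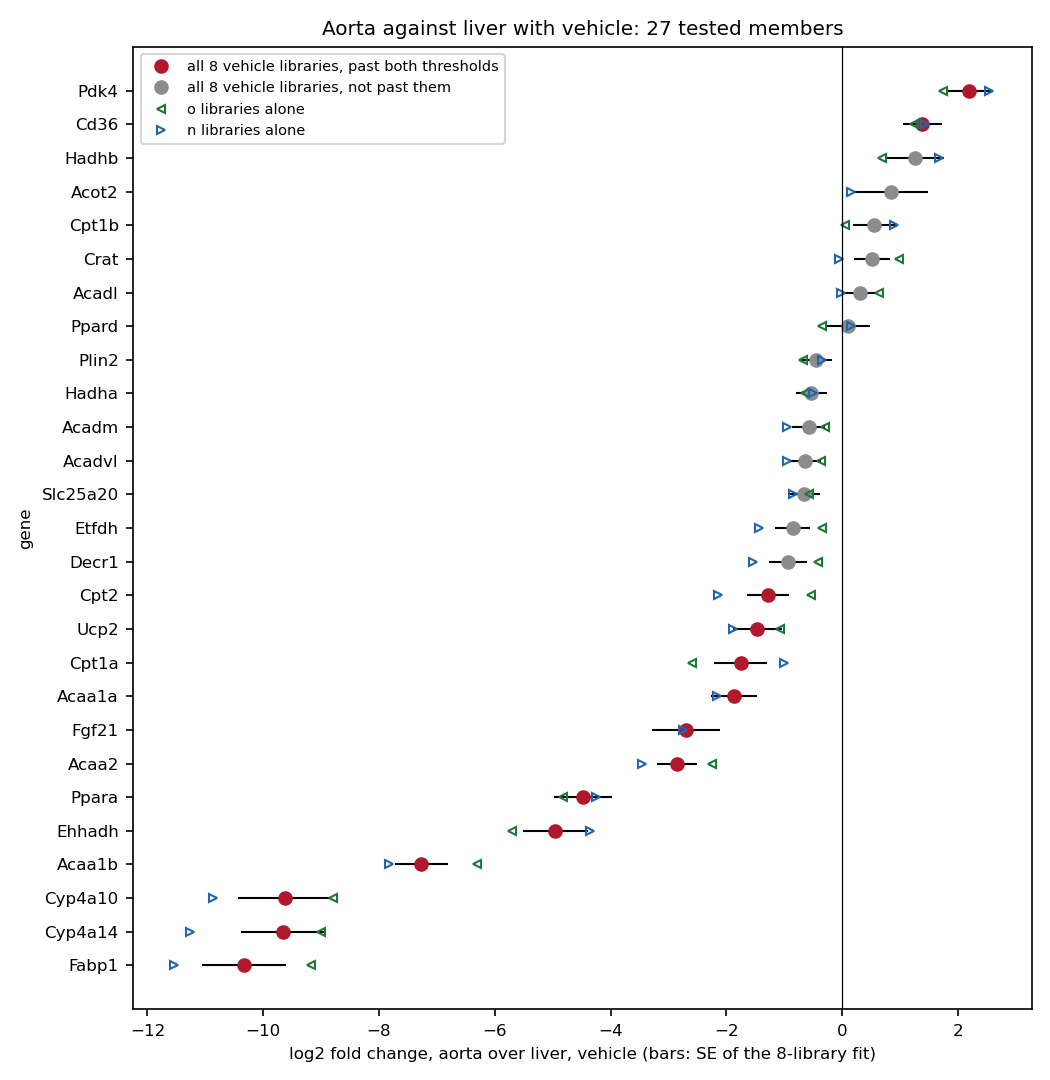
Log2 fold change of aorta over liver with vehicle for the 27 tested members, with the SE of the 8-library fit as bars and the values of o and of n libraries alone as open triangles. Pdk4 and Cd36 are the red points above 0, and Fabp1, Cyp4a14, Cyp4a10 and Acaa1b lie furthest below it.

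The peroxisomal enzymes were all lower in aorta in both comparisons. Ehhadh, the peroxisomal bifunctional enzyme, measured 5.61, 3.55, 8.04 and 1.42 CPM in aorta with vehicle and 173, 265, 81.7 and 96.1 CPM in liver with vehicle. No aorta library reached any liver library, and the fold change was -4.95 ± 0.56 (log2, SE, n = 4 each; edgeR adjusted p = 1.75e-05). With E2 it was -3.53 ± 0.53 (edgeR adjusted p = 0.000422). Acaa1b was lower by more, at -7.27 ± 0.46 with vehicle and -7.24 ± 0.43 with E2. Acaa1a was lower at -1.87 ± 0.39 and -2.41 ± 0.38, both called by edgeR. In o libraries alone with vehicle it was left untested by the filter on low counts, with 5 and 16 counts in aorta and 23 and 10 in liver.

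The omega-hydroxylases Cyp4a10 and Cyp4a14, which start the dicarboxylic acid route, were close to absent from aorta. Cyp4a10 had 4 counts over the 4 vehicle libraries of aorta and 1654 counts over those of liver, a ratio of 0.000981 in CPM terms (95% counting interval 0.000267 to 0.00252). Cyp4a14 had 8 and 3374 counts, a ratio of 0.000962 (0.000415 to 0.0019). With E2 the counts were 4 in aorta and 1490 in liver for Cyp4a10, and 8 in aorta and 2740 in liver for Cyp4a14. These intervals cover counting error only. In edgeR both were called with vehicle and with E2, at fold changes between -9.67 and -9.62 on the log2 scale.

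Among the genes of uptake, binding and storage, Cd36, a fatty acid translocase of the cell surface, was higher in aorta. It measured 390, 419, 227 and 97.7 CPM in aorta with vehicle and 141, 178, 40.2 and 69.0 CPM in liver with vehicle. The groups overlapped over all 4 libraries, since aorta n2 lay below liver o1 and o2, but aorta was higher within each suffix. The fold change was 1.38 ± 0.33 with vehicle (log2, SE; edgeR adjusted p = 0.00414) and 1.63 ± 0.38 with E2 (edgeR adjusted p = 0.00559). With E2 it measured 322, 438, 230.3 and 159.7 CPM in aorta and 143, 221, 47.0 and 40.7 CPM in liver. In the o libraries alone with E2 the fold change was 0.95, short of the size threshold. Adipocytes also carry Cd36, and 7 of 7 tested adipocyte markers were called higher in aorta in each comparison. Their part in the Cd36 value was not tested.

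Fabp1 was the member furthest below liver. It measured 4.62, 3.02, 2.10 and 3.55 CPM in aorta with vehicle, against 1489, 2559, 8422 and 7005 CPM in liver with vehicle. With E2 it measured 1.61, 0.595, 1.63 and 1.86 CPM in aorta and 1491, 1588, 7861 and 7689.7 CPM in liver, so no aorta library came near a liver library. The fold change was -10.33 ± 0.72 with vehicle and -11.41 ± 0.66 with E2 (log2, SE; edgeR adjusted p = 3.13e-07 and 1.24e-06). Fabp3, the heart-type fatty acid binding protein, was the reverse and was left untested in both comparisons by the filter on low counts. It had 320 counts in aorta and 0 in liver with vehicle, so that aorta was at least 43.3-fold higher against a floor of 3 counts over the group. With E2 it had 383 counts in aorta and 3 in liver, a ratio of 44.0 (95% counting interval 14.9 to 214). It passed the filter and was called higher in aorta with vehicle in o and in n libraries alone, and with E2 in n libraries alone. Plin2 did not pass, at -0.46 with vehicle and -0.38 with E2.

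The carnitine shuttle had calls in both directions. Cpt1a, the liver-type enzyme, measured 37.7, 42.3, 22.4 and 5.96 CPM in aorta with vehicle and 217, 227, 23.5 and 27.7 CPM in liver with vehicle. Aorta lay well below liver in o1, o2 and n2, while aorta n1 and liver n1 were nearly level. The fold change was -1.76 ± 0.46 (log2, SE; edgeR adjusted p = 0.00687). That call was lost without liver vehicle o1 (-1.36), liver vehicle o2 (-1.32) or aorta vehicle o1 (-1.34), and in n libraries alone the value was -0.999. With E2 Cpt1a was not called, at -0.83 ± 0.58 (edgeR adjusted p = 0.260). In o libraries alone it was called with E2, at -1.99 (edgeR adjusted p = 0.00058), while in n libraries alone it stood at 0.11. Without liver E2 n2 it was called, at -1.42.

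Cpt1b, the muscle-type enzyme, measured 8.80, 29.7, 50.9 and 33.5 CPM in aorta with E2 and 5.18, 12.6, 14.0 and 11.0 CPM in liver with E2. Aorta was higher within each suffix, although aorta o1 lay inside the liver range. The fold change was 1.40 ± 0.37 with E2 (log2, SE; edgeR adjusted p = 0.0106) and 0.55 ± 0.37 with vehicle, which was not called (edgeR adjusted p = 0.229). The E2 call was lost without liver E2 n1 (1.34) and in o libraries alone (0.94). Striated muscle carries Cpt1b, Fabp3 and Ucp3 too. Of its 15 markers, 4 of 6 tested with E2 and 3 of 5 tested with vehicle were called higher in aorta. Brown adipocytes carry Cpt1b and Ucp3 as well. Of their 6 markers, 6 of 6 tested with E2 and 5 of 6 tested with vehicle were called higher in aorta. The part of either cell type in the values of these members was not tested.

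Cpt2, the inner-membrane enzyme, was lower in aorta with vehicle at -1.28 ± 0.36 (edgeR adjusted p = 0.0114) and not called with E2 at -1.11 ± 0.51 (edgeR adjusted p = 0.0928). Its vehicle call was lost without aorta vehicle n2 (-1.13), and in o libraries alone the value was -0.54. With E2 it was called without liver E2 o1 (-1.58), liver E2 o2 (-1.67) or aorta E2 o2 (-1.66). It was also called with E2 by DESeq2 and in n libraries alone (-2.50). Crat, carnitine acetyltransferase, was higher in aorta with E2 at 1.24 ± 0.32 (edgeR adjusted p = 0.00949). That call was lost without liver E2 o2 (0.93) or aorta E2 o2 (0.94), and in n libraries alone the value was 0.85. Slc25a20, the carnitine-acylcarnitine carrier, was called in neither comparison.

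Of the 8 mitochondrial beta-oxidation genes, Acaa2, the mitochondrial thiolase, was the only one called in both comparisons. It measured 31.9, 69.3, 92.1 and 109 CPM in aorta with vehicle and 209, 227, 1029.6 and 1029 CPM in liver with vehicle. No aorta library reached a liver library, and the fold change was -2.85 ± 0.35 with vehicle and -2.70 ± 0.47 with E2 (log2, SE; edgeR adjusted p = 3.16e-05 and 0.00106). Hadhb was higher in aorta with E2 at 1.48 ± 0.43 (edgeR adjusted p = 0.0166) and just missed the threshold with vehicle at 1.26 ± 0.50 (edgeR adjusted p = 0.0517). Its E2 call was lost without liver E2 n1 (1.53), aorta E2 n1 (1.41) or aorta E2 n2 (1.46), and in o libraries alone (1.14). With vehicle it was called without liver vehicle o1 (1.68) or aorta vehicle o1 (1.70), and in n libraries alone (1.67). Hadhb was also called with vehicle by DESeq2, with size factors by the median of ratios, with no filter on low counts and without Rn45s.

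The acyl-CoA dehydrogenases Acadl, Acadm and Acadvl, the trifunctional subunit gene Hadha, the dienoyl-CoA reductase gene Decr1 and the electron transfer gene Etfdh were called in neither comparison. Decr1 and Etfdh passed the p-value threshold with vehicle (edgeR adjusted p = 0.0315 and 0.0314) but their fold changes of -0.94 and -0.86 did not reach the size threshold. In n libraries alone both were called, Decr1 at -1.54 and Etfdh at -1.44, and in o libraries alone they stood at -0.41 and -0.35. With vehicle, Decr1 was called without liver vehicle o2 (-1.05) or aorta vehicle o2 (-1.15), and Etfdh without aorta vehicle o2 (-1.08). With E2, Decr1 was called by DESeq2 and without liver E2 o2 (-1.53) or aorta E2 o2 (-1.52). Acadvl was called with E2 without liver E2 o2 (-1.24) or aorta E2 o2 (-1.23). In n libraries alone with E2, Decr1 (-2.18), Acadvl (-1.71) and Etfdh (-1.26) were all called.

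The acyl-CoA thioesterases, which free fatty acids from CoA, had few counts. Acot1 was lower in aorta with E2 at -3.42 ± 0.58 (edgeR adjusted p = 0.00129) and untested with vehicle, where it had 47 counts in aorta and 294 in liver. In n libraries alone with vehicle it was called, at -4.43, and in o libraries alone it was left untested in both comparisons. Acot2 did not pass with vehicle, at 0.83 ± 0.65, and was untested with E2, where it had 257 counts in aorta and 20 in liver. In n libraries alone with E2 it was called, at 1.63.

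Ppara, the gene of the receptor PPARalpha, was lower in aorta in both comparisons. It measured 1.32, 4.94, 2.18 and 0.709 CPM in aorta with vehicle and 111, 56.2, 23.1 and 28.7 CPM in liver with vehicle. The groups did not overlap, and the fold change was -4.48 ± 0.50 (log2, SE; edgeR adjusted p = 1.59e-05). With E2 it was -3.55 ± 0.50 (edgeR adjusted p = 0.000283). Ppard, the gene of PPARdelta, was not called, at 0.10 ± 0.39 with vehicle and 0.24 ± 0.43 with E2.

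Pdk4, the kinase that shuts off pyruvate oxidation when fat is burned, was higher in aorta. It measured 159, 235, 113 and 34.8 CPM in aorta with vehicle, against 40.9, 67.1, 10.7 and 12.3 CPM in liver with vehicle. With E2 it measured 152, 262, 139 and 77.5 CPM in aorta and 73.4, 66.7, 9.16 and 13.2 CPM in liver. Aorta was higher within each suffix in both comparisons, and the fold change was 2.19 ± 0.38 with vehicle and 2.41 ± 0.49 with E2 (log2, SE; edgeR adjusted p = 0.000489 and 0.00255). Both calls were lost when the batch covariate was left out, at 1.96 with vehicle and 1.91 with E2 (edgeR adjusted p = 0.100 and 0.127). Without that covariate Cd36, Acaa1a, Ucp2 and Fgf21 also lost both calls, Cpt1a and Cpt2 lost that with vehicle, and Cpt1b, Crat, Hadhb and Acot1 lost that with E2. Ucp2, an inner-membrane carrier of the uncoupling protein family, was lower in aorta at -1.46 ± 0.42 with vehicle and -1.18 ± 0.32 with E2 (edgeR adjusted p = 0.0121 and 0.0126). Its vehicle call was lost without liver vehicle o1 (-1.23) or aorta vehicle o1 (-1.22), and in o libraries alone (-1.07).

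Ucp3, the uncoupling protein of muscle and brown fat, had no count in any of the 8 liver libraries. It had 225 counts in aorta with E2, at least 25.8-fold higher than liver, and 109 counts in aorta with vehicle, at least 14.7-fold higher, against a floor of 3 counts over the group. With E2 it was called higher in aorta, at 8.16 on the log2 scale, a fold taken against 0 counts in liver. With vehicle it was left untested by the filter on low counts, but it was called higher in aorta in n libraries alone. Fgf21, a hormone the fasting liver secretes under PPARalpha, was lower in aorta at -2.70 ± 0.59 with vehicle and -3.60 ± 0.71 with E2 (log2, SE; edgeR adjusted p = 0.00234 and 0.00216). Its aorta counts were low, with a total of 85 in aorta with E2 and 89 in aorta with vehicle. In o libraries alone Fgf21 was left untested in both comparisons.

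**Figure D4:**
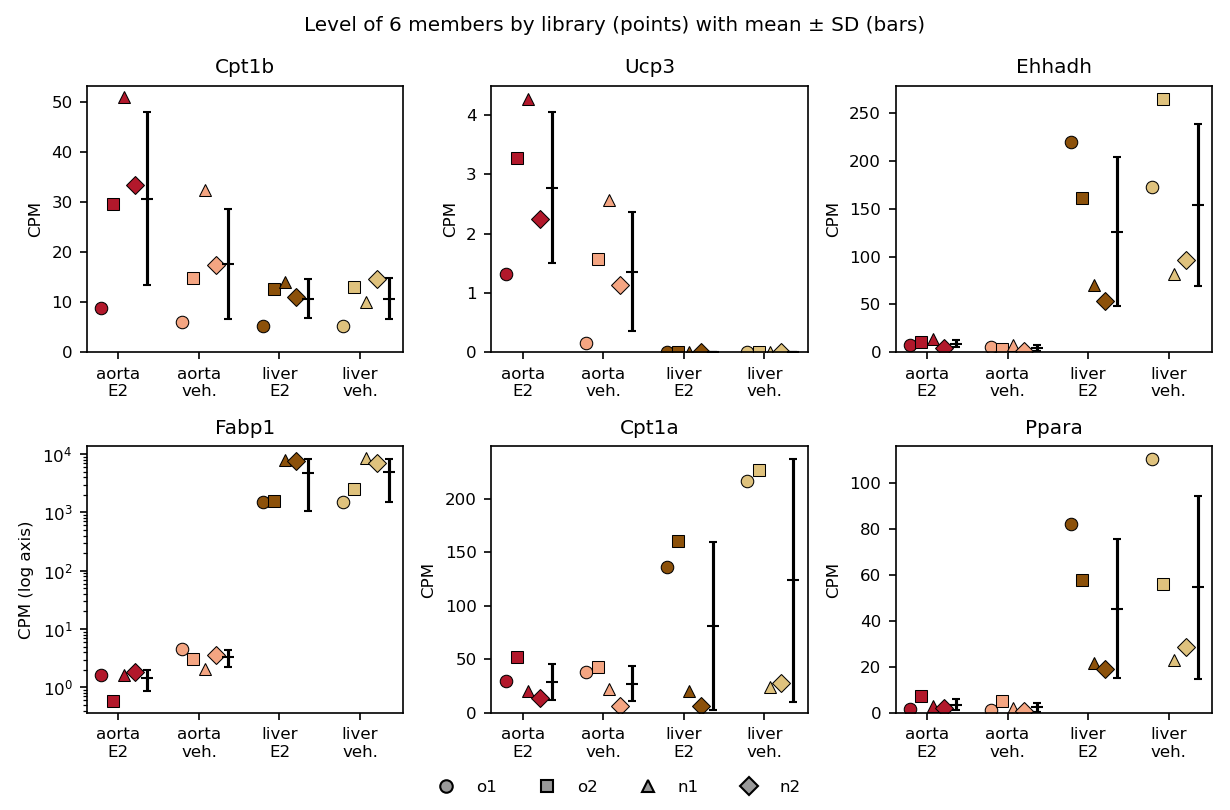
CPM of 6 members in every library, with marker shapes for the suffixes o1, o2, n1 and n2 and bars for the mean ± SD of each group of 4. Ucp3 is absent from liver, Ehhadh, Fabp1 and Ppara are lower in aorta, Cpt1b passed the test between tissues with E2 alone, and the liver values of Cpt1a split between o and n libraries.

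The wider pathway was read from 63 other genes listed by role. With vehicle 58 were tested. Of these, 4 were called higher in aorta, against 24.1% of all tested genes, and 36 lower, against 23.4%. The 3 called higher with the largest fold changes were Fabp4 (4.08), the adipocyte fatty acid binding protein and also an adipocyte marker, the droplet protein gene Plin4 (3.20) and the adipocyte receptor gene Pparg (2.04). Those lowest were Slc27a5 (-10.87), Acsm1 (-10.73) and Fabp2 (-10.32), for bile acid and fatty acid activation and for lipid binding. With E2 60 were tested. Of these, 7 were called higher, against 26.3% of all tested genes, led by Fabp4 (4.24), Plin4 (3.85) and Pparg (1.93). Another 36 were called lower, against 22% of all tested genes, led by Acsm1 (-11.03), Slc27a5 (-10.82) and Fabp2 (-10.41). Of 15 other acyl-CoA oxidation genes, 13 were called lower with vehicle, against 1 of the 8 mitochondrial members and 23.4% of all tested genes.

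E2 was then set against vehicle within each tissue, in the same libraries that entered the tissue comparisons. In aorta 28 members were tested and none was called by edgeR, and of all 13698 genes tested 0 passed (0%), with 495 at an unadjusted p under 0.05 and 24 called by DESeq2, none of them a member. Of the members, 19 had positive and 9 negative values, with a median log2 fold change of 0.14 against -0.0083 over all tested genes. All members had an adjusted p of 1.0 at this precision, and 3 had an unadjusted p under 0.05. Positive values were found for 4 of 5 carnitine shuttle genes (median 0.27), 7 of 8 mitochondrial beta-oxidation genes (0.21), 2 of 3 peroxisomal genes (0.076), 1 of 2 thioesterases (0.14), both receptors (0.32) and 2 of 3 genes of fuel choice and uncoupling (0.30). In contrast, 3 of 4 genes of uptake, binding and storage had negative values (median -0.18), as had Fgf21 (-0.83), and no test compared the roles. Of the 28, 11 were higher with E2 in every suffix pair, where 7.75% of all tested genes were, and 1, Fabp1, was lower in every pair, where 6.58% were. In the o1, o2, n1 and n2 pairs 15, 18, 23 and 20 members were higher, against 48.9%, 45.8%, 45.9% and 59.1% of all tested genes.

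**Figure D5:**
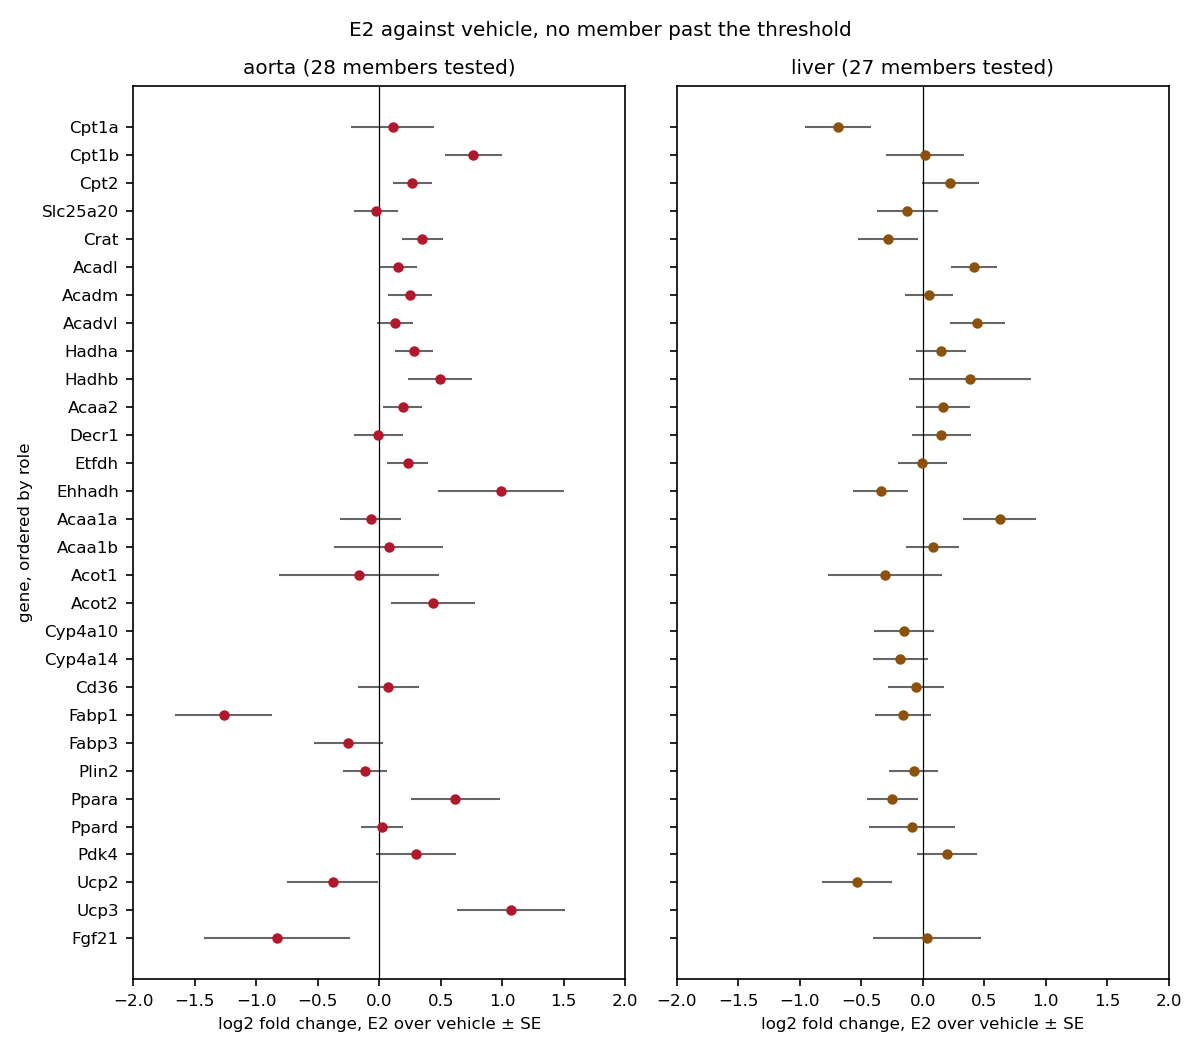
Log2 fold change of E2 over vehicle with SE bars for each tested member in aorta (left, 28 members) and liver (right, 27 members), genes ordered by role. No member passed the threshold in either tissue, and the extremes in aorta were Ucp3 at 1.07 and Fabp1 at -1.26.

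Cpt1b had the smallest p of the members in aorta. It measured 8.80, 29.7, 50.9 and 33.5 CPM with E2 and 6.11, 14.8, 32.4 and 17.4 CPM with vehicle. E2 was higher in 4 of 4 suffix pairs, although the ranges overlapped, and the fold change was 0.76 ± 0.23 (log2, SE, n = 4 each; edgeR unadjusted p = 0.00925, adjusted p = 1.0). With the 4 suffixes as a replicate block the adjusted p was 0.159.

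Ucp3 measured 1.32, 3.27, 4.27 and 2.24 CPM with E2 and 0.165, 1.57, 2.57 and 1.13 CPM with vehicle. E2 was again higher in 4 of 4 pairs with overlapping ranges, at 1.07 ± 0.44 (log2, SE; edgeR unadjusted p = 0.0364, adjusted p = 1.0). Ehhadh stood at 7.92, 10.9, 13.4 and 4.57 CPM with E2 and 5.61, 3.55, 8.04 and 1.42 CPM with vehicle, a fold change of 0.99 ± 0.51 (edgeR adjusted p = 1.0). Crat measured 33.6, 89.9, 69.3 and 58.8 CPM with E2 and 32.5, 68.3, 52.1 and 38.2 CPM with vehicle.

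Crat was thus higher with E2 in 4 of 4 pairs with overlapping ranges, at 0.35 ± 0.17 (log2, SE; edgeR adjusted p = 1.0). Ppara, at 1.76, 7.14, 2.80 and 2.17 CPM with E2 and 1.32, 4.94, 2.18 and 0.709 CPM with vehicle, was also higher in 4 of 4 pairs, at 0.62 ± 0.36. Neither Cpt1a, at 0.11 ± 0.34, nor Ppard, at 0.02 ± 0.17, kept one direction over the pairs, each being higher in 2 and lower in 2. Brown adipocytes also carry Cpt1b and Ucp3. Of 6 brown adipocyte markers 5 had positive values in aorta with E2, none was called, and they summed to 248.8 to 1200 CPM with E2 and 239 to 853 CPM with vehicle. Their part in the Cpt1b and Ucp3 values was not tested.

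Fabp1 was the only tested member in aorta whose E2 and vehicle libraries did not overlap, and 0.431% of all genes tested did not overlap in either direction. It measured 1.61, 0.595, 1.63 and 1.86 CPM with E2 and 4.62, 3.02, 2.10 and 3.55 CPM with vehicle. The fold change was -1.26 ± 0.39 (log2, SE; edgeR unadjusted p = 0.0107, adjusted p = 1.0). The hepatocyte markers in the same aorta libraries leaned the same way: 7 of 7 tested had lower values with E2, with a median of -0.84, and all 10 summed to 63.8 to 384 CPM with E2 and 105 to 593 CPM with vehicle. Their part in the Fabp1 value was not tested.

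The other members with negative values in aorta were less even. Fgf21 had no count in either o library with E2 and stood at 1.66 and 1.56 CPM in n1 and n2, against 0, 0.349, 1.94 and 2.41 CPM with vehicle. The ranges overlapped and its fold change was -0.83 ± 0.59 (log2, SE; edgeR adjusted p = 1.0). Ucp2 measured 30.6, 31.2, 38.7 and 49.2 CPM with E2 and 21.8, 51.6, 30.6 and 95.3 CPM with vehicle. It was lower in 2 of 4 pairs, at -0.38 ± 0.37, and stood at 0.15 without aorta vehicle n2, its highest library.

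In liver 27 members were tested and none was called, and 0 of all 11726 genes passed in edgeR (0%), with 502 at an unadjusted p under 0.05 and 0 called by DESeq2. Of the members, 13 had positive and 14 negative values, and 2 had an unadjusted p under 0.05. In every suffix pair 1, Acadl, was higher, where 5.29% of all tested genes were, and 1, Cpt1a, was lower, where 7.41% were. The n1 and n2 suffixes did not pair the liver libraries in the data, so these counts over pairs rest on the column names there. The E2 and vehicle libraries overlapped for all 27, where 0.341% of all tested genes did not overlap.

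Cpt1a had the smallest p of the members in liver. It measured 136, 160.1, 19.97 and 6.60 CPM with E2 and 217, 227, 23.5 and 27.7 CPM with vehicle. E2 was lower in 4 of 4 suffix pairs, with the widest gap in n2, and the fold change was -0.69 ± 0.27 (log2, SE, n = 4 each; edgeR unadjusted p = 0.0229, adjusted p = 0.939). Leaving out 1 library at a time moved it between -0.97 and -0.46.

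Acadl, the long-chain acyl-CoA dehydrogenase, measured 89.2, 128, 245 and 307 CPM with E2 and 64.1, 110.1, 212 and 182 CPM with vehicle. It was higher in 4 of 4 pairs, at 0.42 ± 0.19 (log2, SE; edgeR unadjusted p = 0.0442, adjusted p = 0.939). Acadvl, the very-long-chain enzyme, measured 154, 193, 1139 and 1065 CPM with E2 and 156, 196, 614 and 576 CPM with vehicle. Its difference lay in the n libraries, at 0.86 alone, against 0.01 in the o libraries alone.

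Acaa1a measured 4.09, 4.18, 161 and 118 CPM in liver with E2 and 5.95, 1.05, 89.5 and 98.3 CPM with vehicle. It was higher in 3 of 4 pairs, at 0.62 ± 0.30 (log2, SE; edgeR adjusted p = 0.939). Ucp2 measured 48.8, 94.5, 89.4 and 126.6 CPM with E2 and 79.7, 58.0, 190.6 and 249.9 CPM with vehicle. Its value of -0.53 ± 0.28 came from the n libraries, at -1.06 alone, against 0.06 in the o libraries alone. Ehhadh measured 219, 161, 69.9 and 53.9 CPM with E2, against 173, 265, 81.7 and 96.1 CPM with vehicle, and was lower in 3 of 4 pairs at -0.34 ± 0.23.

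Ppara stood at 82.4, 58.0, 21.8 and 19.1 CPM in liver with E2 and 111, 56.2, 23.1 and 28.7 CPM with vehicle, a fold change of -0.25 ± 0.21 (log2, SE; edgeR adjusted p = 0.940). Ppard was at -0.09 ± 0.35 and Cpt1b at 0.02 ± 0.32, each higher in 2 pairs and lower in 2. Of the 8 mitochondrial genes 7 had positive values in liver, with a median of 0.16, but the letters differed. In n libraries alone all 8 were positive, from 0.18 for Etfdh to 0.86 for Acadvl. In o libraries alone 5 of the 7 tested were negative, namely Acadm (-0.18), Hadha (-0.12), Acaa2 (-0.24), Decr1 (-0.38) and Etfdh (-0.18). The 10 hepatocyte markers all had positive values in liver with E2, with a median of 0.18. They summed to 72112 and 76895 CPM in the o libraries with E2 and 77200 and 118809 CPM with vehicle. In the n libraries they summed to 188200 and 196879 CPM with E2 and 130578 and 111422 CPM with vehicle. In contrast, 7 of 7 macrophage markers (median -0.35) and 6 of 6 endothelial markers (median -0.33) had negative values. Macrophage markers summed to 194 to 940 CPM with E2 and 248.6 to 1118 CPM with vehicle, and endothelial markers to 178 to 878 CPM with E2 and 266 to 954 CPM with vehicle. None of these markers was called, and their part was not tested.

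The difference between the tissues' E2 effects was tested over all 16 libraries. None of the 30 members was called, and 0 of 14190 genes passed in edgeR (0%), with 761 at an unadjusted p under 0.05 and 12 called by DESeq2, none of them a member. Ehhadh differed by 1.34 ± 0.56 (log2, SE; edgeR unadjusted p = 0.0298, adjusted p = 0.875), from effects of 0.99 in aorta and -0.34 in liver. Ppara differed by 0.87 ± 0.38, Crat by 0.65 ± 0.29 and Cpt1b by 0.75 ± 0.37, all with an edgeR adjusted p of 0.875. Fabp1 differed by -1.02 ± 0.39, beside hepatocyte markers of which 10 of 10 had a negative difference, with a median of -0.96 and none called. Acaa1a differed by -0.69 ± 0.44, and Fabp3, which had 3 counts in liver with E2 and 0 with vehicle, gives no usable fold.

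The 63 other genes of the pathway also gave no call for E2. In aorta 53 were tested, 38 with positive values and 15 with negative ones, and the median was 0.14, the same at this rounding as that of the members. In liver 60 were tested, 31 positive and 29 negative. The smallest p-values in aorta were those of Acacb, at 0.57 ± 0.21, and Plin4, at 0.46 ± 0.18, both higher in 4 of 4 pairs. Angptl4, a secreted inhibitor of lipoprotein lipase and a PPAR target, had the smallest p among them, at -1.15 ± 0.23 in liver (log2, SE; edgeR unadjusted p = 0.000165, adjusted p = 0.939) and lower with E2 in 4 of 4 pairs. In aorta it stood at -0.34 ± 0.15 (edgeR adjusted p = 1.0), also lower in 4 of 4 pairs. Acads, the short-chain acyl-CoA dehydrogenase, followed in liver at 0.56 ± 0.21, higher in 4 of 4 pairs.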

How the data were processed

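Per the labels, poly-A or total RNA from 16 aorta and liver libraries was sequenced. The authors' deposited table holds read counts per gene symbol, treated as estimated counts because a summary line is not whole, though every gene's value is. The 8 lines naming no gene, including reads outside genes (48.0% to 75.2% of reads), were left out of library sizes and tests. Bowtie 0.12.5, HTSeq 0.4.5p7, edgeR 3.4.2 and build mm9 are named in the submitters' processing notes; for the annotation, strand setting and filters the sources used here give nothing.

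Counts were tested with edgeR 4.0.16 (R 4.3.3) by quasi-likelihood with TMM scaling, a filter on low counts (minimum count 10, total 15), Benjamini-Hochberg adjustment over all genes tested and a covariate of 3 levels (o1, o2 and n, from column suffixes). DESeq2 1.42.0 was an alternative, with others given in the closing section. Pair differences used log2(CPM + 1). The suffix was also fitted as a replicate block. Same-suffix libraries deviated together (r of 0.89 to 0.93 in aorta and 0.87 to 0.92 in liver), but libraries of different suffixes reached 0.88 and 0.91. With the letter means removed, r was 0.51 (o) and 0.44 (n) in aorta and 0.30 (o) and -0.06 (n) in liver, so the liver n suffixes show no pairing. The scripts were tested on simulated data. RefSeq and GENCODE tables on GRCm38, not mm9, gave names, exon lengths and promoter sequence only. Members and gene lists were chosen with earlier results of these data known, and named genes are members with the smallest p or largest fold change, with the CPT1 and PPAR genes.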

Additional observations from a re-analysis of the deposited data

Results flagged for a closer look

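Of 72 groups of 4 libraries checked, 3 held 1 library far from the other 3. Chance gives about 1 in 20, a rate that 3 of 72 does not exceed. All 3 concern library o1 of aorta with vehicle. Acadl stood at 78.8 CPM there, against 208 to 222 CPM in the other 3 libraries. The o1 library of aorta with E2 was low as well, at 85.9 CPM against 214 to 270 CPM in the other 3. Cyp4a14 stood at 0.826 CPM and Cyp4a10 at 0.495 CPM in aorta vehicle o1, each above the other 3, but these values rest on 5 and 3 counts. The hepatocyte markers of that library summed to 593 CPM, the highest of the aorta libraries, and their part in the Cyp4a10 and Cyp4a14 values was not tested.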

How the results depend on the processing

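No member was called for E2 in aorta or liver (16 alternatives each) or for the difference between tissues (24), while calls over all genes ranged from 0 to 24, 0 to 6 and 0 to 12. With the replicate block Cpt1b in aorta stood at 0.78 (edgeR adjusted p = 0.159), 12 genes were called in aorta, and no member's call changed. Between tissues, 7 members were called with vehicle (0 higher) and 8 with E2 (1 higher) when the batch covariate was left out, and 13 to 17 and 16 to 20 when 1 library was left out. In o libraries alone 11 and 13 were called, and in n libraries alone 19 and 22. The cause was not tested.

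Among the named values, signs turned only where the value was not called. In o libraries alone, Ppard stood at -0.086 (E2, aorta), 0.057 (E2, liver), -0.14 (difference of effects), -0.35 (aorta over liver, vehicle) and -0.47 (with E2), Ucp2 at 0.065 (E2, liver) and Acaa1a at 0.03 (difference of effects). In n libraries alone Cpt1a was at 0.11 (aorta over liver, E2). With 1 library left out, Ppard ranged from -0.06 to 0.13, -0.42 to 0.18, -0.15 to 0.47, -0.12 to 0.66 and -0.20 to 0.43 in the same order. Likewise Ucp2 in aorta ranged from -0.63 to 0.15, Cpt1a in aorta from -0.16 to 0.52 and Cpt1b in liver from -0.10 to 0.14. Low counts limit Ucp3, Fgf21, Acot1 and Acot2.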
